A study of Oryza sativa with 12 samples.

Results

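Root and shoot of the rice (Oryza sativa) mutant line osspt5-1#12 were set against each other, to see how far the difference between these organs is held in this line. The series describes it as depleted of OsSPT5-1, whose level was not analysed here. The members are the locus rows (identifiers of the form Os, chromosome, g and a number) with at least 1 FPKM in at least 3 of the 6 mutant libraries. FPKM values count fragments relative to gene length and to library depth. By this rule 20409 of 31003 locus rows were members, 65.8%, out of 38034 identifiers of all kinds. Of the 10594 locus rows left out, 935 were listed at 0 in all 6 mutant libraries. The third-highest FPKM was 1.000016 in the member closest to the threshold and 0.9998 in the closest row outside it. Between 1 and 1.1 FPKM there were 314 members, and between 0.9 and 1 FPKM there were 362 rows left out.

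The mutant root and the mutant shoot had 3 libraries each, and so had root and shoot of the wild-type cultivar Nipponbare (WT), which served as the measure of the normal organ difference. The plants were vegetative and chamber-grown, with 15 h light (28 °C) alternating with 9 h dark (24 °C). Plant age, the kind of lesion and how many plants made up a library are not stated in the material used here. The mutant is a single line, so the effect of the lesion and of the line itself cannot be told apart. Replicates carry numbers, with no word on whether separate plants were used, and the spread behind the p-values may thus be technical.

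SPT5 proteins travel with RNA polymerase II along genes and help it to continue through the gene body, and as such they are used in every organ. A shoot in vegetative growth is mostly leaf tissue, which carries out photosynthesis, and its cells read large sets of genes for chloroplasts. A root takes up water and minerals, and its cells read genes for transporters, for the outer cell layers and for root hairs. A gene read much more in one organ than in the other is called organ-preferred here. The files pair no locus with a gene name, and the reference table of names matched 1 of 38034 identifiers. Roles of single loci are therefore not given, organ markers by name were not used here, and no sequences are shown.

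The organ labels of the mutant libraries were instead checked against the WT organs over the 20409 members. Each mutant root library was closer to the WT root mean (Pearson's r of 0.949, 0.89 and 0.874 for libraries 1, 2 and 3) than to the WT shoot mean (0.739, 0.678 and 0.732). Each mutant shoot library was closer to the WT shoot mean (0.915 to 0.932) than to the WT root mean (0.759 to 0.767). The mutant root libraries differed most among themselves, with r of 0.872 to 0.925, against 0.98 to 0.988 within mutant shoot, 0.98 to 0.985 within WT root and 0.907 to 0.961 within WT shoot. Mutant root library 1 lay closest to WT root, with a mean absolute difference of 0.422 on the log2(FPKM + 1) scale, against 0.665 and 0.693 for libraries 2 and 3. Its r with the WT root libraries was 0.941 to 0.946, above its 0.925 and 0.876 with mutant root libraries 2 and 3. Between single libraries, the mean absolute difference was 0.664 within mutant root and 0.615 between mutant root and WT root. Mutant root libraries thus differed from each other about as much as from WT root, which limits the mutant root results below. Recovered depth was 10612862 to 15749857 reads in the mutant libraries and 10118071 to 15127186 in WT.

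Root and shoot of the mutant differed in the expression of 6903 members, 33.8% of the 20409. Root was higher in 3171 of these and shoot in 3732 (limma, Benjamini-Hochberg adjusted p under 0.05). Over all 25337 rows tested, locus rows or not, 30.6% were called, 13.9% higher in root and 16.7% higher in shoot, so the share among members lay near that of all rows. Differences of at least 2-fold were called in 4654 members, 1828 higher in root and 2826 in shoot, a share near the 20.9% of all rows tested. Differences of at least 8-fold were called in 195 and 485 members, against 0.849% and 2.13% of all rows tested. The median difference of the members, root minus shoot on the log2(FPKM + 1) scale, was 0.06. In these bulk samples, fewer cells of a type and less RNA per cell cannot be told apart.

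The balance between the organs depended on the settings. With the 6 mutant libraries fitted alone, root was higher in 1725 members and shoot in 3002. The majority turned to root under quantile normalization (3732 against 3584) and without mutant root library 1 (3920 against 3700). Without any 1 mutant shoot library, 2068 to 2171 were higher in root. Part of the members had to differ through the rule itself: 498 had no shoot library at 1 FPKM and 890 had no root library at 1 FPKM. Among the 16236 members at 1 FPKM or more in all 6 mutant libraries, root was higher in 2432 and shoot in 2314. The libraries of the organs did not overlap in 4277 members with root higher, 21%, and 4795 with shoot higher, 23.5%, against 19.2% and 22.1% of all rows tested.

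The members higher in root held fewer bases than the others. Their median recovered gene length was 1327 bases, against 1568 for those higher in shoot and 1643 for the 13506 members not called. Among members at least 8-fold higher in an organ the medians were 1054 bases for root and 1198 for shoot. These strongly root-preferred members had a median level of 39 FPKM in mutant root and 1.07 in mutant shoot. The strongly shoot-preferred members had 46.7 FPKM in mutant shoot and 1.99 in mutant root. These values describe the classes and were not tested.

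Os04g0188500 on chromosome 4 had the largest called difference in favour of root. It had 306.5, 144.2 and 326 FPKM in mutant root libraries 1 to 3 and 0.823, 0.744 and 2.37 in mutant shoot. The organs did not overlap, and the lowest root library stood far above the highest shoot library. The log2 difference was 6.79 (SE 0.461, limma adjusted p = 3.93e-06), a 197.4-fold difference of the mean FPKM. In WT the same locus had 97.2 ± 20.3 FPKM in root and 1.81 ± 1.4 in shoot (SD, n = 3), a log2 difference of 5.27. Its organ difference was not shown to differ between the genotypes (limma interaction adjusted p = 0.262).

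Os10g0454200 on chromosome 10 was second, with 246, 469.8 and 353.7 FPKM in mutant root against 5.39, 0.789 and 3.04 in mutant shoot. All mutant root libraries lay above all mutant shoot libraries. The log2 difference was 6.59 (SE 0.729, limma adjusted p = 7.4e-05) in the mutant and 5.53 in WT (limma interaction adjusted p = 0.676).

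In favour of shoot, Os03g0251000 on chromosome 3 differed most. It had 359.2, 391.9 and 228.7 FPKM in mutant shoot and 0, 0.322 and 0.14 in mutant root, where 6 reads were recovered in all. The log2 difference was −8.12 (SE 0.345, limma adjusted p = 2.76e-07), close to the −8.38 of WT (limma interaction adjusted p = 0.846). Root of either genotype thus held almost no reads of this locus.

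Os12g0563600 on chromosome 12 had 257.2, 282.2 and 286.5 FPKM in mutant shoot, and in mutant root it was listed at 0 in libraries 1 and 3 and at 0.213 in library 2, from 3 reads. Its log2 difference was −8.02 (SE 0.493, limma adjusted p = 1.96e-06), against −7.01 in WT (limma interaction adjusted p = 0.531). In WT shoot the locus was uneven, at 389.6, 72.1 and 81.9 FPKM.

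Taken over all members, the organ difference of the mutant followed that of WT. Pearson's r between the difference in the mutant and that in WT was 0.818 over 20409 members, and Spearman's rho was 0.743. No library entered both differences, but the members share their annotation and the estimate of the spread, and they are not independent replicates. The sign was the same in 15744 members, 77.1%. It was the same in 65.4% of the 10969 members called in neither genotype, which were 53.7% of all members. The spread of the differences was 1.18 in the mutant and 1.31 in WT (SD over members, log2 scale). Between single root and shoot libraries r was 0.723 to 0.794 in the mutant and 0.714 to 0.772 in WT.

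**Figure D1:**
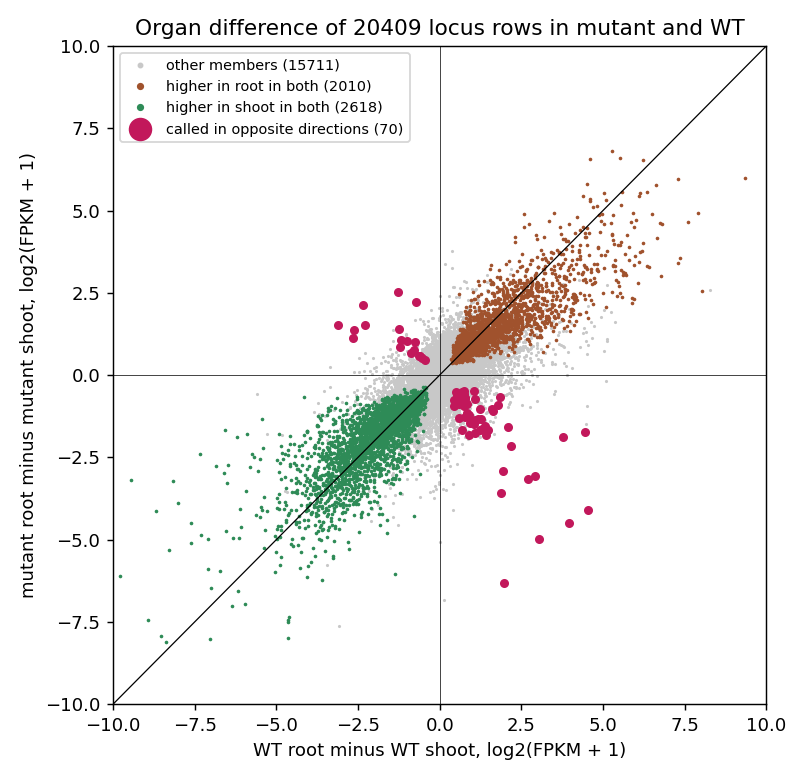
Each point is a locus row, with the difference between WT root and WT shoot on the horizontal axis and that between mutant root and mutant shoot on the vertical axis, both on the log2(FPKM + 1) scale; the diagonal marks equal differences. Most coloured points lie in the quadrants where both genotypes point to the same organ, and 70 rows called in opposite directions lie in the other quadrants.

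In WT, 7235 members were called between the organs, against 34.3% of all rows tested (17.8% higher in root and 16.5% in shoot). Among the members called in both genotypes, 4628 of 4698 pointed to the same organ, 98.5%. These were 2010 members higher in root and 2618 higher in shoot, together 22.7% of the members, against 20% of all rows tested. In the 2010 root members the median difference was 1.36 in the mutant and 1.49 in WT. In the 2618 shoot members it was −1.74 and −1.91. Called in the mutant alone were 1143 members higher in root and 1062 higher in shoot. Being called in one genotype and not in the other does not show a difference between them. In the 1630 members called for root in WT and not called in the mutant, 84.6% had the same sign in the mutant, with a median difference of 0.38 there and 1.1 in WT. In the 907 members called for shoot in WT and not called in the mutant, 83.4% had the same sign.

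Locus rows strongly preferred by an organ in WT were mostly called in the same direction in the mutant, but fewer kept a strong preference. Strong preference means at least 8-fold (3 on the log2 scale) with adjusted p under 0.05, and the WT contrast chose these locus rows. Of all rows tested, locus rows or not, 2.03% (root) and 2.38% (shoot) met this in WT. Of 559 shoot-preferred rows, 510 were called in the same direction in the mutant, 91.2%, and 551 had the same sign. Of 472 root-preferred rows, 357 were called in the same direction, 75.6%, and 459 had the same sign. The preference was still at least 8-fold in 164 of the root-preferred rows, 34.7%, and in 288 of the shoot-preferred rows, 51.5%. Among all rows tested, 16.7% were called higher in mutant shoot and 13.9% higher in mutant root. Opposite calls were made for 5 of the root-preferred and 1 of the shoot-preferred rows. Leaving out single libraries gave 63.7% to 82.2% for root and 88% to 92% for shoot, and fitting each genotype alone gave 58.3% and 90.6%.

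The share found again rose with the size of the WT difference in root. It was 46.9% of 1675 rows with a WT log2 difference of 1 to 2, then 61.6% of 653 rows from 2 to 3, 72.8% of 379 rows from 3 to 5, and 87.1% of 93 rows over 5. In shoot it was 67.4% of 1615, 87.9% of 844, 91.9% of 495 and 85.9% of 64 rows. Rows were also chosen the other way round, by the mutant contrast of the same fit, which shares its estimate of the spread with WT. Of 199 rows strongly root-preferred in the mutant, 193 were called in the same direction in WT, 97%, and of 485 shoot-preferred rows, 443 were, 91.3%. At least 8-fold in WT were 82.4% and 59.4% of them. With each genotype fitted alone, 98.4% of 183 root-preferred and 81.4% of 488 shoot-preferred rows were found again.

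**Figure D2:**
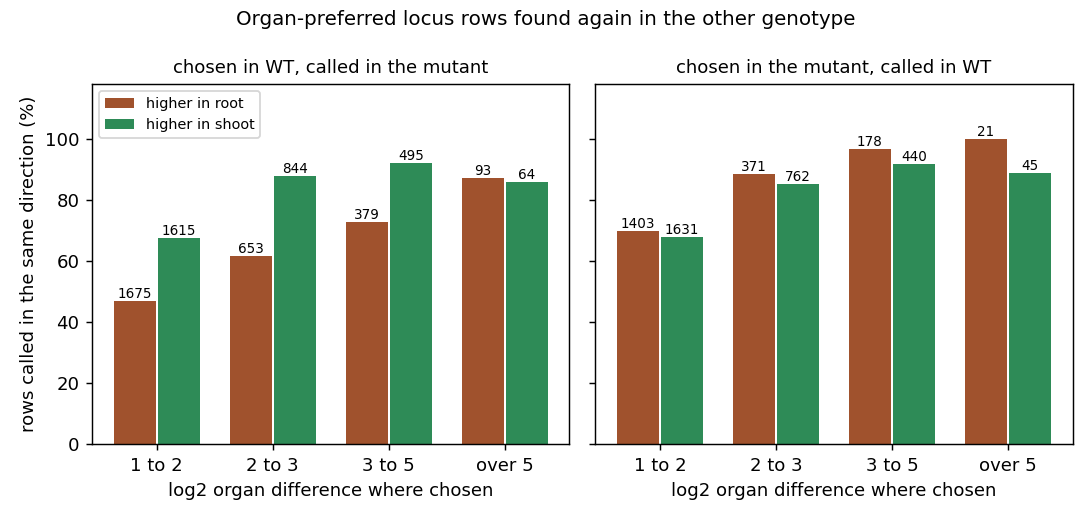
Bars give the percentage of organ-preferred locus rows, binned by their log2 organ difference in the genotype where they were chosen (WT on the left, mutant on the right), that were called in the same direction in the other genotype; the number of rows in each bin stands above its bar. For rows chosen in WT the root bars lie below the shoot bars up to a difference of 5.

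In rows chosen in WT, the median preference was smaller in mutant root than in WT root. In the 472 rows root-preferred in WT, the median root minus shoot difference was 3.88 in WT and 2.43 in the mutant. By library, measured from the shoot mean of the same genotype, the median was 3.82, 3.9 and 4.01 in WT root libraries 1 to 3 and 3.04, 2.27 and 2.13 in mutant root libraries 1 to 3. All mutant root libraries lay below all WT root libraries, library 1 the least. Choosing rows in WT favours large WT differences, so the reverse choice is needed beside it. In the 199 rows root-preferred in the mutant, the median was 3.65 in the mutant and still 4.31 in WT. That gap shrank to 3.65 against 3.71 without mutant root library 3 and to 3.77 against 3.9 without mutant root library 1. It also depended on the cutoff. Rows chosen in the mutant at 2-fold had medians of 1.55 (mutant) and 1.59 (WT), and at 32-fold 5.56 and 5.53.

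For shoot, each genotype showed the larger difference in the rows chosen on it. In the 559 rows shoot-preferred in WT the median, shoot minus root, was 3.64 in WT and 3.07 in the mutant. By library it was 3.51, 3.94 and 3.61 in WT shoot and 3.05, 3.2 and 2.95 in mutant shoot. In the 485 rows shoot-preferred in the mutant it was 3.61 in the mutant and 3.27 in WT. By size alone, without any call, 196 members were at least 8-fold higher in mutant root against 423 in WT root, and 488 were so in mutant shoot against 518 in WT shoot.

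**Figure D3:**
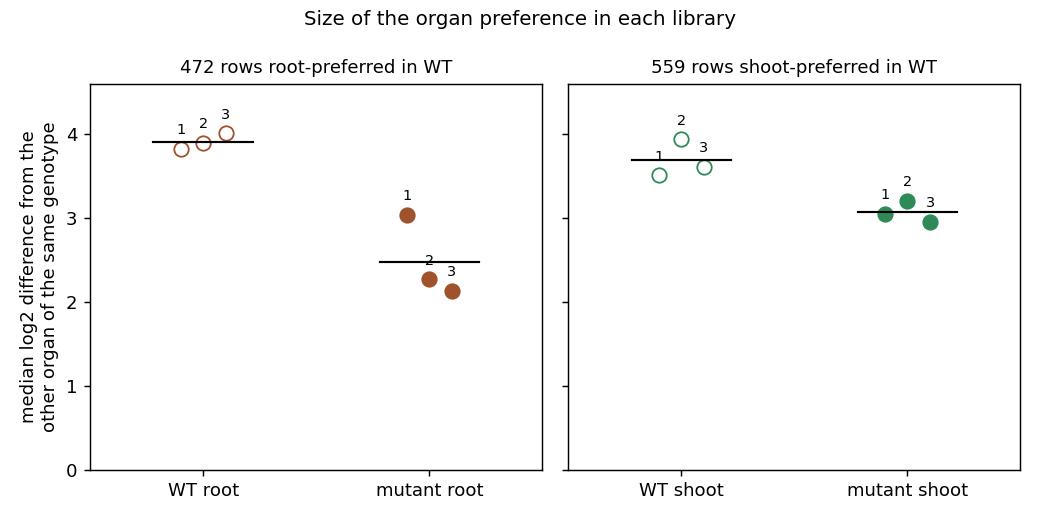
Each circle is a library (numbered by replicate), placed at the median log2(FPKM + 1) difference between that library and the mean of the other organ of the same genotype, over the rows strongly preferred by root (left) or shoot (right) in WT; horizontal lines are the means of 3 libraries. Mutant libraries lie below WT libraries in both panels, and mutant root libraries 2 and 3 lie lowest, at 2.27 and 2.13.

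The share of reads that the strongly preferred members took was measured under both choices. Members strongly root-preferred in WT held 4.35%, 2.75% and 2.66% of member reads in mutant root libraries 1 to 3, against 5.34% to 6.4% in WT root. In shoot of either genotype they held 0.247% to 0.397%. Members strongly shoot-preferred in WT held 6.45% to 7.89% of member reads in mutant shoot, against 11.5% to 16.9% in WT shoot. In mutant root they held 0.28% to 0.788%, and in WT root 0.694% to 0.899%. Members strongly root-preferred in the mutant held 2.3%, 1.58% and 1.55% of member reads in mutant root libraries 1 to 3 and 2.1% to 2.4% in WT root, so that the genotypes overlapped. Members strongly shoot-preferred in the mutant held 7.36% to 8.73% in mutant shoot and 10.9% to 15.5% in WT shoot, lower in the mutant under this choice too. Such shares weigh the most read loci most. Os12g0559200, in this class, had 104466 to 133625 reads in WT shoot libraries and 506 to 900 in mutant shoot libraries. The median shoot minus root difference of the class was larger in the mutant, 3.61 against 3.27 in WT.

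The organ difference itself was tested against that of WT. It differed in 551 members (limma interaction contrast, adjusted p under 0.05), 213 more positive and 338 more negative in the mutant, where positive means a shift towards root. This is 2.7% of the members, against 3.52% of all rows tested (1.55% positive and 1.98% negative). The count rested on single libraries. It was 1427 without mutant root library 1, 882 without mutant root library 3, 334 without WT shoot library 3, 278 to 292 without any 1 mutant shoot library and 292 to 328 without any 1 WT root library. Under quantile normalization 315 members were more positive and 297 more negative, so the majority turned.

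Among the rows strongly preferred in WT, the changed differences were nearly all smaller in the mutant. Of the 472 root-preferred rows, 86 had a smaller difference in the mutant and 0 a larger one by the limma interaction test. Of the 559 shoot-preferred rows, 134 had a smaller difference and 3 a larger one. Large WT differences were the basis of the choice, which favours shrinkage. In rows strongly preferred in the mutant, the difference was smaller in WT for 5 and larger for 8 of 199 root-preferred rows, and smaller for 37 and larger for 16 of 485 shoot-preferred rows.

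In these rows, chosen for a high level in an organ of WT, the smaller differences lay mostly in that organ. Of the 86 root-preferred rows with a smaller difference, 75 fell in mutant root relative to WT root and 16 rose in mutant shoot relative to WT shoot, 6 of them both (limma adjusted p under 0.05; of all rows tested, 7% were called in root, 4.37% lower in the mutant, and 9.5% in shoot, 4.8% higher in the mutant). Their median root level was 41.2 FPKM in WT and 6.21 in the mutant, and their median shoot level 0.658 and 1.49 FPKM. Of the 134 shoot-preferred rows, 131 fell in mutant shoot and 5 rose in mutant root, against 4.69% and 2.63% of all rows tested. Their median was 32 FPKM in WT shoot and 3.21 in mutant shoot, with 0.182 and 0.127 FPKM in WT and mutant root. These comparisons use the same libraries as the interaction and describe where it lies. The choice itself favours a fall in the preferred organ, and the same was not counted for rows chosen in the mutant. Of the smaller differences, 46 of 86 for root and 95 of 134 for shoot were still called in the same direction in the mutant.

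Os12g0559200 on chromosome 12 had the most positive interaction among members whose mutant and WT libraries did not overlap. It had 2515, 2616 and 2030 FPKM in WT shoot and 12.96, 16.7 and 13.9 in mutant shoot. In root it had 1.99, 1.53 and 4.06 FPKM in WT and 0.284, 1.39 and 0.622 in the mutant. Shoot stood above root in every library of both genotypes, but the log2 difference shrank from −9.46 in WT to −3.18 in the mutant, an interaction of 6.28 (SE 0.399, limma adjusted p = 1.91e-05). Shoot was 943.7-fold above root in WT and 19-fold above it in the mutant.

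Os11g0540600 on chromosome 11 had 56.9, 138.2 and 52.3 FPKM in WT shoot and 2.59, 3.53 and 1.9 in mutant shoot. It had 0.749, 0.56 and 0.429 FPKM in WT root and 5.75, 0.749 and 0.244 in mutant root, so that the mutant organs overlapped. The log2 difference was −5.58 in WT and −0.56 in the mutant (limma adjusted p = 0.488 for the mutant), an interaction of 5.02 (SE 0.795, limma adjusted p = 0.00712). The interaction call ended with a pseudocount of 0.01 (adjusted p = 0.0654) and with limma-voom (adjusted p = 0.073). Without mutant root library 1, which held the high root value, the mutant organs differed by −1.29 (limma adjusted p = 0.0322).

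In 70 members the organ preference turned: both genotypes were called, in opposite directions. They made up 0.343% of the members, against 0.32% of all rows tested. In 52 of them WT was higher in root and the mutant higher in shoot, and in 18 WT was higher in shoot and the mutant higher in root. The interaction was called in 51 of the 52 and in all 18. The organ difference was at least 2-fold in both genotypes in only 25 of the 52 and 8 of the 18. The count of turned members was 154 without mutant root library 1, 39 to 40 without any 1 mutant shoot library, and 45 and 44 without WT root library 1 or 2. With each genotype fitted alone it was 41.

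The 52 members that turned from root to shoot mostly rose in shoot. In mutant shoot 44 were higher than in WT shoot and 0 lower, and in mutant root 26 were lower than in WT root and 0 higher, with 19 called in both organs. Their median level was 5.35 to 5.77 FPKM in WT shoot libraries and 23.5 to 27.1 in mutant shoot libraries, and in root 17.7 to 21.3 FPKM (WT) and 6.26 to 9.62 (mutant). Mutant shoot thus stood a little above WT root, and mutant root a little above WT shoot. Of the 18 that turned from shoot to root, 12 were lower in mutant shoot and 10 higher in mutant root, with 4 called in both. Their median level was 18.4 to 21.6 FPKM in WT shoot and 5.59 to 6.55 in mutant shoot, and in root 7.79 to 10.9 (WT) and 12.6 to 16.1 (mutant). The levels describe rows chosen by these same libraries.

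Os10g0195250 on chromosome 10 had the most negative interaction. It had 54.5, 55.3 and 31.4 FPKM in WT root against 0.454, 3.22 and 0.304 in WT shoot. In the mutant the order was reversed, with 7.31, 0.848 and 11.6 FPKM in root against 115.1, 98.4 and 86.5 in shoot. Neither pair of organs overlapped. The log2 difference was 4.54 in WT and −4.11 in the mutant (limma adjusted p = 0.000267 and 0.000745), an interaction of −8.66 (SE 0.912, limma adjusted p = 0.000598).

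Os12g0236225 on chromosome 12 behaved alike, with 38.4, 30.8 and 15.3 FPKM in WT root, 0.152, 3.08 and 0.153 in WT shoot, 3.83, 0.852 and 5.33 in mutant root and 104.5, 80.3 and 72.6 in mutant shoot. The interaction was −8.44 (SE 0.805, limma adjusted p = 0.000293). Its recovered length was 435 bases and that of Os10g0195250 was 437. If these are near-identical copies their reads may have been split between them, which was not tested, so they may not be separate observations.

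In the other direction, Os04g0518400 on chromosome 4, chosen after its values were seen, had 57.8, 58.7 and 87.5 FPKM in WT shoot and 2.44, 2.27 and 3.92 in mutant shoot. Its root levels were 11.4, 8.76 and 18.3 FPKM in WT and 24.4, 15 and 10.4 in the mutant. The genotypes overlapped in root and were apart in shoot, and the log2 difference went from −2.35 in WT to 2.13 in the mutant (interaction 4.49, SE 0.474, limma adjusted p = 0.000598). Os07g0605400 on chromosome 7, chosen likewise, had 20.9, 19.9 and 15.9 FPKM in WT shoot, 5.58, 3.51 and 5.61 in mutant shoot, 4.63, 1.78 and 3.21 in WT root and 8.57, 38 and 11.8 in mutant root. Its mutant difference of 1.54 (limma adjusted p = 0.0266) rested on single libraries: it was 0.93 (adjusted p = 0.0523) without mutant root library 2, the highest, and 1.35 to 1.63 (adjusted p = 0.0535 to 0.0929) without any 1 mutant shoot library.

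**Figure D4:**
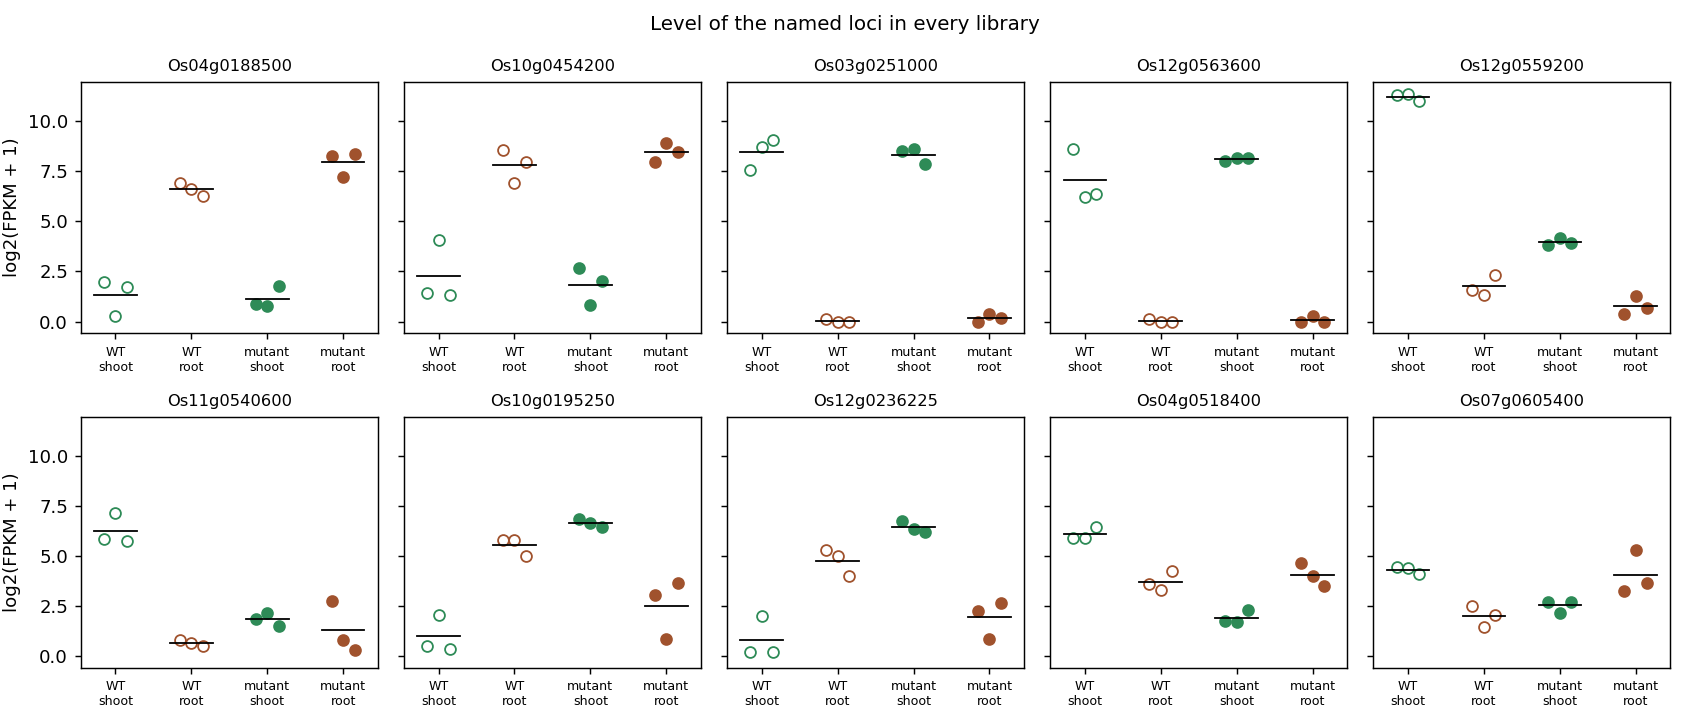
Each panel shows a locus, with the level on the log2(FPKM + 1) scale on the vertical axis and the 4 groups along the horizontal axis; circles are libraries (open for WT, filled for the mutant) and lines are the means of 3 libraries. The first 4 loci keep their organ preference in the mutant, Os12g0559200 keeps a smaller one, and Os10g0195250 and Os12g0236225 are high in WT root and mutant shoot.

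Some loci were listed in a single organ. In the mutant, 30 locus rows had at least 1 FPKM in all 3 root libraries and were listed at 0 in all 3 shoot libraries, and 109 rows did so the other way round. In WT these numbers were 71 for root and 119 for shoot. Of the 71 WT rows, 9 met the same rule in mutant root, 12.7% of the WT rows and 30% of the mutant rows. Of the 119 WT shoot rows, 25 met it in mutant shoot, 21% of the WT rows and 22.9% of the mutant rows. The rule asks for both parts at once. Of the 71 root rows, 19 had at least 1 FPKM in all 3 mutant root libraries and 37 stayed at 0 in all 3 mutant shoot libraries. Of the 119 shoot rows, 53 and 73 did so for mutant shoot and mutant root. Gain in the other organ was rare: 1 of the 71 root rows and 0 of the 119 shoot rows reached 1 FPKM in all 3 mutant libraries of the other organ. The median level of the WT rows was 3.09 FPKM in WT root and 4.29 in WT shoot. A level of 0 is limited by depth, since 3 reads of a row of 1 kb make 0.19 to 0.296 FPKM.

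The members differing between the mutant organs were spread over all 12 chromosomes. By chromosome, 14.7% (chromosome 10) to 17.8% (chromosome 6) of members were higher in root and 16.2% (chromosome 9) to 21.3% (chromosome 4) were higher in shoot. The interaction was called in 1.74% (chromosome 5) to 3.89% (chromosome 10) of members.

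In the order of locus numbers, the neighbour of a called member shared its organ more often than members at large, though mostly it did not. The next member was also higher in root for 20.9% of the members higher in root, against 15.5% of all members. For members higher in shoot it was 24.7%, against 18.3%. For members at least 8-fold higher the shares were 9.74% against 0.955% in root and 6.39% against 2.38% in shoot. Whether neighbours are copies of each other was not tested, and the shares are a description.

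The longest runs of neighbours, chosen after their values were seen, were 8 members higher in shoot on chromosome 5 and 7 members higher in root on chromosomes 4 and 8. The 8 members from Os05g0189300 to Os05g0192100 had mean levels of 1.73 to 132.2 FPKM in mutant shoot and 0 to 2.11 in mutant root, with log2 differences of −7.03 to −1.26. All 8 were also called higher in shoot in WT, where the median difference was −3.38 against −3.75 in the mutant. The interaction was called for 1 of the 8. The 7 members from Os08g0189400 to Os08g0190100 had 10.9 to 110.6 FPKM in mutant root and 0.683 to 7.07 in mutant shoot, with log2 differences of 2 to 3.65. All 7 were higher in root in WT too, with a median difference of 4.83 against 3.37 in the mutant, with the interaction called for 0 of them. Shoot also had 2 runs of 7 members. The run on chromosome 6, from Os06g0316300 to Os06g0318200, had a median difference of −4.08 in the mutant and −2.93 in WT. There, 6 of its members were called higher in WT shoot too, and the interaction was called for 1. The run on chromosome 7, from Os07g0136500 to Os07g0137600, was higher in mutant shoot with a median difference of −1.78. In WT 3 of its members were called higher in shoot, with a median of −0.26, and the interaction was called for 1.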

How the data were processed

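RNA of 12 libraries (4 groups of 3) was measured. Per the file headers, the authors deposited FPKM values, 1 file per library. Bowtie2 2.2.3, HISAT2 2.1.0 and HTSeq 0.6.0 appear in the submitters' processing notes, with the build IRGSP-1.0. No annotation release or filter is stated in the material used here. Per the labels' protocols, a NEBNext Ultra kit that does not mark strand was used on 2 µg of RNA, so overlapping antisense genes cannot be told apart, and near-identical copies are uncertain.

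Shoot files held 35395 rows and root files 34948, and a row missing from an organ was set to 0 there. Values were put on the log2(FPKM + 1) scale, so fold changes of low rows are understated. The limma-trend model (limma 3.58.1, R 4.3.3; calls at a Benjamini-Hochberg adjusted p under 0.05) was fitted to all 12 libraries with a mean per group, over the 25337 rows of all kinds that reached 1 FPKM in 3 or more libraries. Contrasts were mutant root minus mutant shoot, WT root minus WT shoot, the difference between these (interaction), and mutant minus WT in each organ.

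Whole reads and gene lengths were recovered from the steps between low FPKM values. Within 0.002 reads (up to 0.02 for large counts), 100% of rows came out whole, and for 98.4% the length was whole to 0.05 bases. A row above 0 in a single library is whole by construction. The depth was set to make most lengths whole, so the share of lengths is no independent check. Sparse rows are uncertain. Intervals and floors cover counting error only. The procedure was tested on simulated data with the same spread in every group. The mutant root libraries differed most among themselves, so that test does not show how well calls involving them are made.

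The files do not pair loci with names, so the gene lists were not used, and 2 loci in each direction are named per comparison: those with the largest called differences, at least 1 FPKM on average in the higher organ and no overlap of libraries (for the interaction, no overlap between mutant and WT in the organ that differs more). The members and lists were chosen with earlier results of these data known.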

Additional observations from a re-analysis of the deposited data

Results flagged for a closer look

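The organ difference differed between mutant and WT in 551 members by the limma interaction test. With 3 libraries a group, no library was tested as an outlier.

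Of the named loci, 6 had an organ difference that differed between the genotypes. The interaction, mutant minus WT on the log2(FPKM + 1) scale, was 6.28 for Os12g0559200, which was higher in shoot in both genotypes, by less in the mutant. It was 5.02 for Os11g0540600, whose mutant organs overlapped. It was −8.66 for Os10g0195250 and −8.44 for Os12g0236225, where the organ with the higher level changed from root to shoot. It was 4.49 for Os04g0518400 and 3.83 for Os07g0605400, where it changed from shoot to root. For Os07g0605400 the higher level in mutant root was not called under every setting (limma adjusted p of 0.00897 to 0.102). Over the settings tried, the limma adjusted p of the interaction was 8.66e-06 to 0.00589 for Os12g0559200, 0.00168 to 0.073 for Os11g0540600, 3.05e-05 to 0.00673 for Os10g0195250, 3.86e-05 to 0.00764 for Os12g0236225, 0.000256 to 0.00335 for Os04g0518400 and 0.0043 to 0.0315 for Os07g0605400.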

How the results depend on the processing

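The 6903 members called between mutant root and shoot stayed within 1.5 times of that count under every setting tried (4654 to 8057), and so did the shares of organ-preferred rows found again in the other genotype. The count higher in root was 1725 with each genotype fitted alone, 1828 when a 2-fold difference was asked as well, and 2068 to 3920 when single libraries were left out. Interaction calls depended most on the settings: 329 (122 more positive and 207 more negative) with a pseudocount of 0.1, 248 (86 and 162) with 0.01, 341 (121 and 220) with at least 5 FPKM in at least 3 libraries, 268 (71 and 197) with limma-voom on recovered reads and 957 (363 and 594) with library weights, whose estimation stopped before it converged; without a filter 353 were more positive. Leaving out single libraries gave 278 to 1427 interaction calls (116 to 588 more positive, 160 to 839 more negative) and 39 to 154 turned members; turned members were 41 with each genotype fitted alone and 121 with library weights. With a replicate block, the labels' numbers treated as pairs within a genotype (estimated correlation 0.0623), 7289 members were called between the mutant organs, 683 had an interaction and 79 were turned, so that the block changed no count by over 1.5 times. Same-numbered root and shoot libraries deviated with r of 0.169, −0.221 and 0.225 in the mutant and 0.227, 0.0712 and 0.306 in WT, not all over 0.1, so the numbers are not taken as pairs. For named loci, 354 of the values recomputed kept their direction and their side of the threshold, 7 were no longer past it (in Os07g0605400 and Os11g0540600), 1 passed it newly (Os11g0540600) and 0 reversed. The causes were not tested.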

Other observations

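Some rows that are not locus rows also differed between the mutant organs. Of 3198 rows tested whose identifiers begin with EPl, 123 were higher in mutant root and 331 in mutant shoot (limma adjusted p under 0.05). In WT 283 were higher in root and 258 in shoot. Called were thus 14.2% of these rows in the mutant and 16.9% in WT, below the 30.6% and 34.3% of all rows tested. Of 24 rows tested whose identifiers begin with CAA, 0 were higher in mutant root and 19 higher in mutant shoot, with a median root minus shoot difference of −2.06 on the log2(FPKM + 1) scale. In WT 12 of the 24 were higher in shoot and 0 in root, with a median of −1.13. Of 18 rows beginning with BAC, 1 was higher in mutant root and 0 in mutant shoot. Whether these differences differ between the genotypes was not tested for the groups.

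The 10 most read locus rows took 2.61% to 3.07% of locus reads in mutant shoot and 1.91% to 2.21% in mutant root, against 4.03% to 6.21% in WT shoot and 2.6% to 2.95% in WT root. The number of locus rows at 1 FPKM or more was 19528 to 19943 in mutant shoot and 19140 to 19585 in mutant root.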
